A study of Homo sapiens with 16 samples.

Results

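KANSL2 was repressed by CRISPR interference in INA6, an established human multiple myeloma line with a plasma cell phenotype that is known to depend on interleukin 6, and the change of every measurable transcript was compared with INA6 cells carrying a nontargeting sgRNA. The genes described are those whose values in the 6 INA6 RNA libraries average 3 or more, 12511 of the 28277 gene symbols in the INA6 table. Of the symbols left out, 8911 were at exactly 0 in every library and 6855 had a lower mean that was not all 0. At the edge of that limit lie FAXDC2 (mean 3.00001, libraries 2.94 to 3.03) and SPACA9 (3.00131) just inside, and STRA8 (2.99925) and KCNQ1 (2.99833) just outside. All values are regularised log (rlog) values on the log2 scale, in which a gene's count is scaled by library and pulled towards the gene's own mean, so changes of genes with few reads are understated.

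The knockdown group has the genotype KANSL2 knockdown and the control group the genotype nontargeting sgRNA control, with 3 libraries each, all untreated. The labels describe the knockdown system as CRISPR-dCas9-CRAB, a guide RNA that brings an inactive Cas9 with a repressor to a gene. The guides and their number, the time after their introduction and the supply of interleukin 6 are not given in the sources used here. The series holds 16 samples, of which the JJN3 RNA libraries enter only the comparison between lines at the end. Nothing in the labels tells whether a replicate was a culture of its own, and p-values therefore reflect library-to-library spread that may be technical only. Depth per library is unknown, and scaling by library makes each rise or fall relative to the other genes.

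The NSL complex, to which KANSL2 belongs, carries the acetyltransferase KAT8 and acts on histone H4 at promoters of many widely expressed genes. Interleukin 6 acts through its receptor chains IL6R and IL6ST, the JAK kinases and STAT3, and SOCS3 is both a target and an inhibitor of that pathway. Immediate early genes such as EGR1 and FOS are switched on within minutes by growth factor signals through ERK, and feedback phosphatases such as DUSP1 switch the signal off.

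Most markers of the labelled cell type, though not all, were present at high levels. Of 12 plasma cell markers 11 passed the minimum mean, and the heparan sulfate proteoglycan SDC1 had a mean of 12.61, the joining chain JCHAIN 15.27 and the transcription factor IRF4 13.84. CD38 had a mean of only 5.03, and CD27 was the plasma cell marker below the minimum. Of 10 endothelial markers none reached a mean of 3 and 5 were at exactly 0 in every library. Of 10 myeloid markers 2 were tested, and S100A8, S100A9, FCGR1A and CD163 were at exactly 0. Of 10 T and NK cell markers 9 are in the table and 3 were tested. Of 10 stromal and 10 erythroid and megakaryocyte markers 2 and 1 were tested, and none of these 8 tested genes was called, though the myeloid marker CD14 was called higher with median centring. Of the 10 B cell markers 6 were tested and 1, CR2, was lower, by 0.16. Some markers of other cell types were well above the minimum. The B cell markers CD79B and PAX5 had means of 10.88 and 7.65, the myeloid marker CD68 7.47 and the erythroid marker HBB 7.44. Because EIF4A1, which every cell uses, is also listed at 0, a low value does not show absence.

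KANSL2 itself was lower in all knockdown libraries, at 7.71, 7.60 and 7.76, than in all control libraries, at 8.06, 8.02 and 8.16. The groups did not overlap. In bulk RNA, fewer repressed cells and weaker repression in each cell cannot be told apart, and the same holds for all levels given. The difference was −0.39 (SE 0.0625, limma adjusted p = 3.06e-05), which is 76.4% of the control value on a linear scale, and 555 is its rank among the falls of all tested genes. The 250 bases before the RefSeq start of KANSL2 (GRCh38.p14, chr12:48682239-48682488, minus strand) are shown because CRISPR interference acts near a gene's start. Capitals mark the CCAAT box on either strand, here the motif found at 90 and 58 bases before the start.
KANSL2: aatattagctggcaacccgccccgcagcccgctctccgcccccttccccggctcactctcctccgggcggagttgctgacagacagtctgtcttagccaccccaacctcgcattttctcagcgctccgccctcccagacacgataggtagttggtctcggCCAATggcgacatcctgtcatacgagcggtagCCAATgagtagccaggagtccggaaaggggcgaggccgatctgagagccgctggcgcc

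The response was broad and mostly small. In the limma fit, with a Benjamini-Hochberg adjusted p below 0.05 as the call, 3084 genes were higher and 3000 lower, 24.7% and 24.0% of those tested and 48.6% in all. Of the genes called higher, 1740 lay between 0.1 and 0.25 on the log2 scale, 1204 between 0.25 and 0.5, 132 between 0.5 and 1 and 4 at 1 or more. Of those called lower the counts were 1551, 1178, 249 and 19. Among the larger changes 268 genes were lower by at least 0.5 (2.14% of those tested) and 136 higher (1.09%), numbers that were 200 and 191 with the libraries centred on their medians. Knockdown and control libraries were fully separate for 6900 genes, 55.2% of those tested. On the principal component that carries 78.7% of the variance of the tested genes, the control libraries scored −0.39, −0.43 and −0.40 and the knockdown libraries 0.35, 0.47 and 0.40. The median absolute deviation of a gene from its arm's mean ranged from 0.0325 in knockdown replicate 2 to 0.0457 in knockdown replicate 1. The split between rises and falls depends on the scaling: over all sizes, median centring gave 3904 rises and 2400 falls, so that 61.9% of calls were rises against 50.7%.

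**Figure D1:**
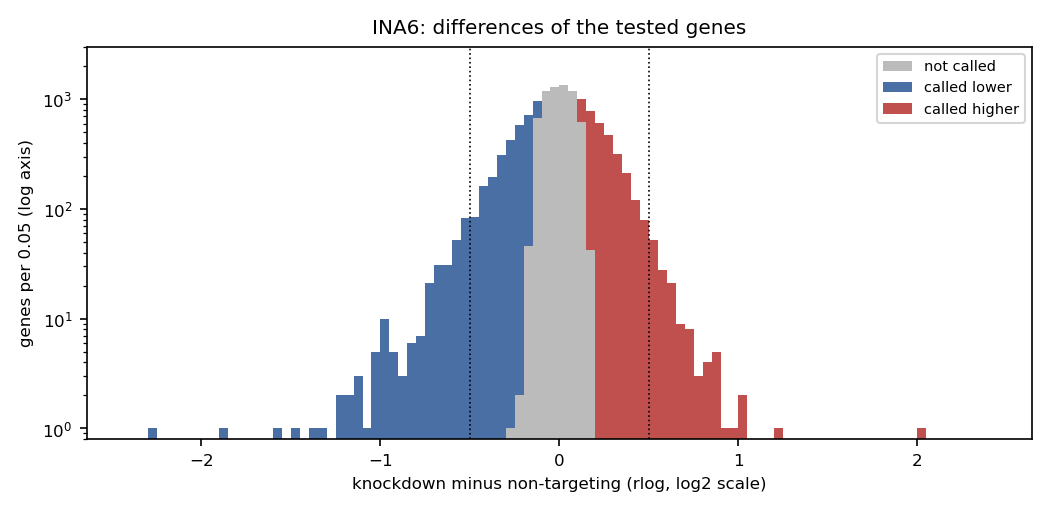
Differences of the 12511 tested INA6 genes, knockdown minus non-targeting on the rlog (log2) scale, in bins of 0.05 with the number of genes on a log axis; grey bars are genes not called, blue called lower and red called higher, and dotted lines mark 0.5 in each direction. The tail of falls holds 19 genes at 1 or more and the tail of rises 4.

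SOCS3, EGR1, CD69, FOS and KLF2, genes of cytokine feedback, the early response to growth factors and lymphocyte activation, had the 5 largest falls. All 25 genes with the largest falls and all 25 with the largest rises had groups that did not overlap, with a gap between the nearest libraries of at least 0.665 for the falls and 0.518 for the rises; non-overlap held for 55.2% of all tested genes. SOCS3, the inhibitor of JAK signalling, was at 12.82, 13.02 and 12.89 in the controls and 10.68, 10.52 and 10.74 in the knockdown libraries, a 4.8-fold fall (−2.26, SE 0.0545, adjusted p = 7.11e-18). No knockdown library came within 2 log2 units of a control library.

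The transcription factor EGR1 was at 12.23, 11.88 and 12.10 in the controls and 10.33, 9.89 and 10.29 in the knockdown, a 3.73-fold fall. Its values spread more within each arm than those of SOCS3, and knockdown replicate 2 was lowest. FOS, a subunit of AP-1, went from 11.06, 11.17 and 11.22 to 9.56, 9.57 and 9.85, a 2.81-fold fall. KLF2, a zinc-finger factor of lymphocyte quiescence and trafficking, went from 11.14, 11.17 and 11.15 to 9.97, 9.49 and 9.94 (2.55-fold). The controls of KLF2 were tight while knockdown replicate 2 again lay lowest. CD69, a lymphocyte activation marker that restrains exit from tissue, went from 9.16, 9.02 and 8.99 to 7.54, 7.40 and 7.50 (2.99-fold), and JUNB, a partner of FOS, from 13.81, 13.76 and 13.67 to 12.74, 12.64 and 12.93. EGR2, a relative of EGR1, fell by 0.99, and the ERK and p38 phosphatase gene DUSP1 by 0.99. The EGFR ligand HBEGF fell by 1.04, from 11.51, 11.56 and 11.55 to 10.55, 10.42 and 10.54.

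Other large falls were in genes of lymphocyte trafficking, G protein signalling and stress responses. S1PR4, a sphingosine-1-phosphate receptor of blood cells, went from 8.37, 8.37 and 8.46 to 7.15, 7.38 and 7.36, and RGS1, which shortens G protein signals from chemokine receptors, from 8.44, 8.39 and 8.39 to 7.41, 7.40 and 7.32. In both, every knockdown library was about 1 log2 unit below the controls. The cytokine gene IL32 fell by 1.14 (SE 0.0414) and the Fc receptor-like B cell surface gene FCRL2 by 0.97 (SE 0.0788). BTG2, an antiproliferative factor that speeds mRNA deadenylation, fell by 1.22 with the 3 knockdown values within 11.97 and 12.03. BHLHE40, a transcriptional repressor of the clock and of hypoxia responses, fell by 1.02. DEPP1 fell by 1.32, the stress-activated kinase gene NUAK2 by 0.99 and TEX19, normally a germ cell gene, by 1.17.

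Genes of glycolysis and oxygen sensing were a further group among the 25 largest falls. CA9, a carbonic anhydrase and classic hypoxia target, was at 5.81, 6.37 and 5.86 in the controls and 4.95, 4.93 and 4.99 in the knockdown. Control replicate 2 stood above the other controls, and the 3 knockdown values were nearly equal. PFKFB4, a regulator of glycolytic flux, went from 7.61, 7.35 and 7.16 to 6.18, 6.15 and 6.14, and ALDOC, an aldolase, from 10.22, 10.28 and 10.21 to 9.04, 8.97 and 9.12. P4HA1, which hydroxylates collagen prolines, fell by 1.11 (SE 0.0546) and the mitophagy receptor BNIP3L by 1.02 (SE 0.0508). In the list of hypoxia-inducible genes 2 were higher and 16 lower of 24 tested, beside 24.7% and 24.0% over all genes tested. The median difference of the list was −0.28, beside 0.00 over all genes tested. The 2 that rose, named here after their values were seen, were HK2, by 0.30, and SLC2A1, by 0.16. LDHA, also named after its value was seen, was at −0.06 (limma adjusted p = 0.211). BNIP3, the relative of BNIP3L, fell by 0.75 and the glycolytic kinase gene PGK1 by 0.49. Both fatty acid desaturase genes of the polyunsaturated pathway were also in the group of largest falls, FADS2 at 9.52, 9.65 and 9.25 in the controls and 8.51, 8.19 and 8.58 in the knockdown and FADS1 with a fall of 0.97.

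**Figure D2:**
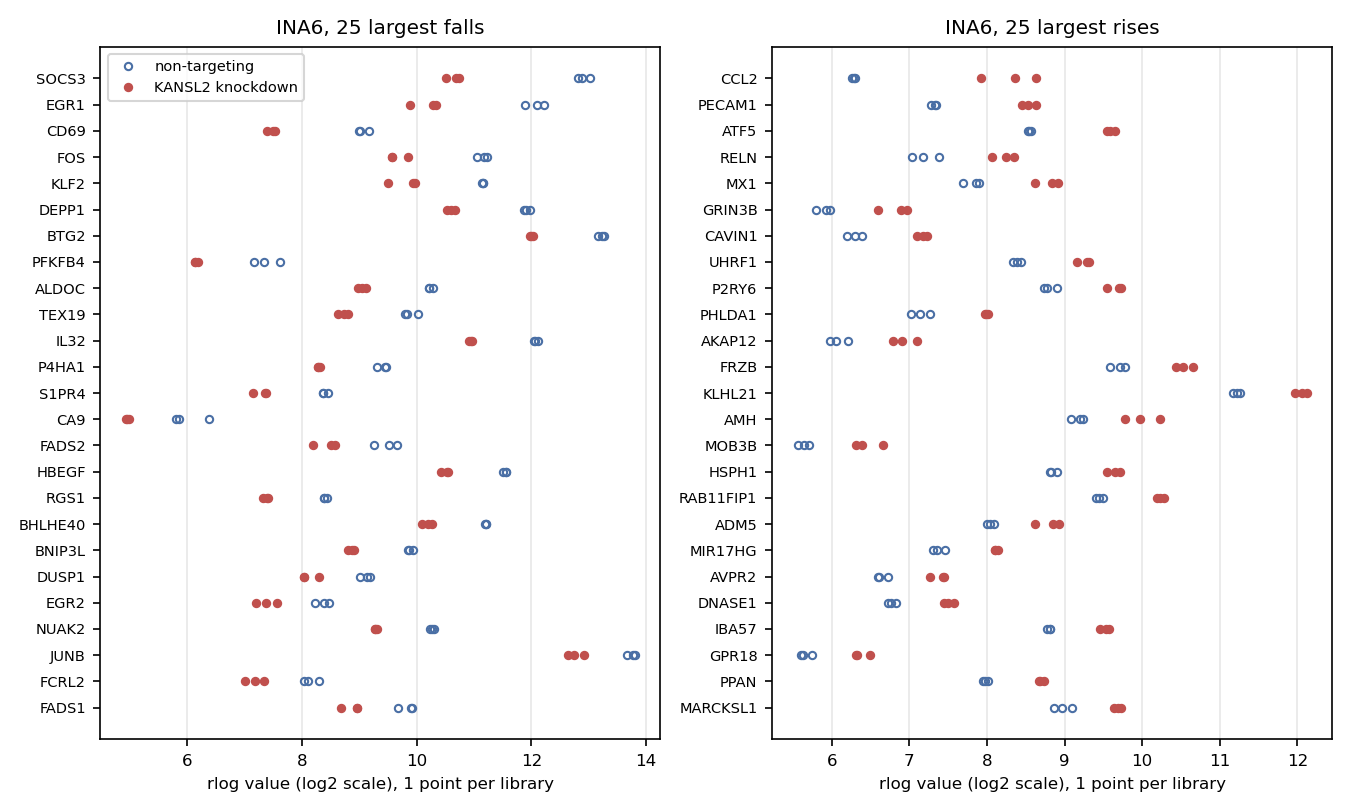
The rlog value (log2 scale, x axis) in each INA6 library of the 25 genes with the largest falls (left) and the 25 with the largest rises (right), with open blue circles for the 3 non-targeting and filled red circles for the 3 knockdown libraries. In every gene shown the groups are separate, by at least 0.518 between the nearest libraries.

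The promoters of the genes with the largest changes that have an entry in the RefSeq table (GRCh38.p14) are shown because these genes moved together or by most. Each run gives the 250 bases before the gene's outermost start, 5′ to 3′ on the gene's strand, and capitals mark any match to the motifs searched on both strands. The motifs were STAT (TTCNNNGAA), AP-1 (TGANTCA), CRE (TGACGTCA), E-box (CACGTG), the hypoxia response element core (ACGTGC), ETS (CCGGAAG), the CCAAT box (CCAAT), the TATA box (TATAAA), the sterol element (TCACNCCAC) and the CArG box, the site of serum response factor. The E-box and the hypoxia core can overlap in their letters. SOCS3 (chr17:78360926-78361175, minus strand), EGR1 (chr5:138465229-138465478, plus strand), FOS (chr14:75278578-75278827, plus strand) and KLF2 (chr19:16324576-16324825, plus strand) are the falls, and ATF5 (chr19:49928656-49928905, plus strand) and RELN (chr7:103989659-103989908, minus strand) the rises.
SOCS3: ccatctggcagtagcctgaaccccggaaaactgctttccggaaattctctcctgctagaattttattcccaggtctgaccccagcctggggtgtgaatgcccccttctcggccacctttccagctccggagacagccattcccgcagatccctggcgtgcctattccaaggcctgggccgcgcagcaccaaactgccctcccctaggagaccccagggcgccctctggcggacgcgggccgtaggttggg
EGR1: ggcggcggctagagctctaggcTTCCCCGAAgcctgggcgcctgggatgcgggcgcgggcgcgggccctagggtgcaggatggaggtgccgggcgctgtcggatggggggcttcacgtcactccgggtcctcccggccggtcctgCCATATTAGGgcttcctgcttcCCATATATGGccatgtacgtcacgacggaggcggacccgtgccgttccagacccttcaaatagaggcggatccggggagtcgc
FOS: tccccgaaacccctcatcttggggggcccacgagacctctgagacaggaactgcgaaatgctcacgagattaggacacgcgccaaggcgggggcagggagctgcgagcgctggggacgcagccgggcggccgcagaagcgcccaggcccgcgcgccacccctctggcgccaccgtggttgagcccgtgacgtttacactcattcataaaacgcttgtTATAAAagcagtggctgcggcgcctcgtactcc
KLF2: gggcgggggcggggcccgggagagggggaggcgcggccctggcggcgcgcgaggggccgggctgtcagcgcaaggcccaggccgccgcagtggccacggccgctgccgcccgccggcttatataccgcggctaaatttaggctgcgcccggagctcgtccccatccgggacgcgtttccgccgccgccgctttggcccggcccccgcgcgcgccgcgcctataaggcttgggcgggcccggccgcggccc
ATF5: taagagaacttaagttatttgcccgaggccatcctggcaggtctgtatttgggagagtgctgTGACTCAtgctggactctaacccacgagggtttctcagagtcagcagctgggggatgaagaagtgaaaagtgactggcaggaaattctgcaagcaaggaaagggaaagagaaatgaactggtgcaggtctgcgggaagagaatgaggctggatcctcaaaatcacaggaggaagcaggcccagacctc
RELN: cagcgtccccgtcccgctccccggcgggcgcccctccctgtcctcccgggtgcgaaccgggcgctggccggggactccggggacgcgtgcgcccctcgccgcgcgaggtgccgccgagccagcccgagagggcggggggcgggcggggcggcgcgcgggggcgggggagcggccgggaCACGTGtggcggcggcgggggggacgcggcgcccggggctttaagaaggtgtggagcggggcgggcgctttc
In EGR1 the capitals mark a STAT match at 228 bases before the start and CArG boxes at 105 and 83. In FOS they mark a TATA box at 33 bases, in ATF5 an AP-1 match at 188 and in RELN an E-box at 72, while none of these letters occurs in the windows of SOCS3 and KLF2. SOCS3 has 2 and ATF5 3 starts in the table, and the window of the outermost is shown. The shares over all 8679 tested genes with a promoter entry come from a longer window, 250 bases before to 50 after the start. In it 1.04% held a CArG box, 6.33% a STAT match, 5.81% a TATA box, 4.26% an AP-1 match and 10.4% an E-box.

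CCL2 and PECAM1, a secreted and a cell surface gene, had the largest rises. CCL2, a chemokine that attracts monocytes, was at 6.30, 6.29 and 6.26 in the controls and 7.93, 8.63 and 8.36 in the knockdown libraries, a 4.07-fold rise (SE 0.107 on the log2 scale, adjusted p = 4.78e-12). The controls differed by less than 0.1, while the knockdown libraries spread over 0.7, with replicate 1 lowest. PECAM1, an adhesion receptor of blood and endothelial cells, went from 7.34, 7.28 and 7.33 to 8.53, 8.63 and 8.45 (2.33-fold). The endothelial markers stayed below the minimum mean, with a summed rlog level of −1.25 to −1.20 in the controls and −1.20 to −1.13 in the knockdown libraries. The myeloid markers summed to 8.77 to 9.07 in the controls and 8.77 to 8.97 in the knockdown libraries. Most of these markers had values below the minimum mean, so neither sum can show whether they changed.

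RELN, an extracellular matrix glycoprotein, went from 7.17, 7.39 and 7.04 to 8.35, 8.25 and 8.06, and FRZB, a secreted inhibitor of Wnt ligands, from 9.72, 9.78 and 9.58 to 10.43, 10.53 and 10.65. AMH, a hormone of the TGF-beta family, rose by 0.83, with knockdown replicate 3 highest at 10.23. Receptors among the 25 largest rises were the nucleotide receptor P2RY6 (0.86), the glutamate receptor subunit GRIN3B (0.92), the vasopressin receptor AVPR2 (0.74) and the G protein-coupled receptor GPR18 (0.72). CAVIN1, a coat protein of caveolae, rose by 0.88 and the kinase anchoring protein gene AKAP12 by 0.85.

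Nuclear and chaperone genes were also among the 25 largest rises. ATF5, a stress-responsive transcription factor, went from 8.55, 8.53 and 8.57 to 9.58, 9.54 and 9.64, with both arms within 0.1. UHRF1, which guides maintenance DNA methylation, went from 8.34, 8.39 and 8.44 to 9.16, 9.31 and 9.29 (1.82-fold). MX1, an interferon-induced antiviral GTPase, rose by 0.97 and the heat shock protein gene HSPH1 by 0.79. MIR17HG, the host transcript of the miR-17 to miR-92 cluster, rose by 0.75 from 7.36, 7.31 and 7.45 to 8.11, 8.14 and 8.10. KLHL21, an adaptor of a cullin ligase needed in mitosis, rose by 0.84, the ribosome biogenesis factor PPAN by 0.72, and IBA57, an iron-sulfur cluster factor of mitochondria, by 0.73.

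Among genes with a mean of at least 10, where shrinkage has little effect, the largest rises after FRZB and KLHL21 were those of RUNX1, a haematopoietic transcription factor (10.28, 10.21 and 10.33 to 10.91, 10.88 and 10.97), TFRC, the transferrin receptor (0.63), the replicative helicase subunit MCM5 (0.63), TOMM40, the channel of the mitochondrial outer membrane translocase (0.63), the ferritin light chain FTL (0.62) and CLUH, which binds mRNAs of mitochondrial proteins (0.61). TFRC and FTL, which take up and store iron, rose together. FTL went from 14.45, 14.40 and 14.44 to 15.06, 15.02 and 15.07.

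The receptor chains, kinases and STAT factors of interleukin 6 signalling changed by at most 0.41, beside the fall of 2.26 in SOCS3. In the list of receptor, JAK and STAT genes 3 were higher and 5 lower of 14 tested, beside 24.7% and 24.0% over all genes tested. The median difference of the list was −0.04, and 0.00 with median centring. The signal-transducing chain IL6ST rose by 0.35, from 10.25, 10.20 and 10.25 to 10.66, 10.59 and 10.51. STAT5B fell by 0.41, the kinase gene JAK1 by 0.27, and the phosphatase gene PTPN6 by 0.32, while the phosphatase gene PTPN2 rose by 0.28. STAT3, named here after its values were seen, was at 0.07 (SE 0.0413, limma adjusted p = 0.164). IL6 had a mean below the minimum. Of the SOCS family, CISH fell by 0.68, from 8.56, 8.68 and 8.42 to 7.94, 7.72 and 7.96, SOCS2 by 0.19, and SOCS4 rose by 0.36. SOCS1 was at 0.14 (limma adjusted p = 0.0911), and passed with each library centred on its median (0.17, adjusted p = 0.0335) and without control replicate 1 (0.19, 0.0391) or knockdown replicate 1 (0.19, 0.0321). The SOCS family thus held calls in both directions.

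Of 20 tested immediate early transcription factors 11 were lower and 3 higher (median −0.31), against 24.0% lower and 24.7% higher over all genes. The 3 that rose, named here after their values were seen, were SRF, the serum response factor, by 0.44, FOSL1 by 0.27 and FOSL2 by 0.23. All lists were written with earlier results of these data known. IER2 fell by 0.81 and KLF6 by 0.60. In the list of ERK feedback genes 3 were higher and 5 lower of 12 tested (median difference −0.06). SPRED2, an inhibitor of RAF activation, rose by 0.62, from 9.19, 9.18 and 9.06 to 9.74, 9.84 and 9.73, while the phosphatase genes DUSP5 and DUSP2 fell by 0.40 and 0.32 and SPRY1 by 0.30. The ERK feedback list therefore held both directions. Of 8 mRNA decay genes of the BTG, TOB and ZFP36 families, ZFP36, which destabilises cytokine mRNAs, fell by 0.96 (13.00, 13.01 and 13.02 to 12.02, 11.99 and 12.12), TOB1 by 0.43 and ZFP36L2 by 0.23, and TOB2 rose by 0.31. TXNIP, a glucose-responsive inhibitor of thioredoxin, fell by 0.71 and its relative ARRDC3 by 0.44.

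Genes that build ribosomes, proteins and nucleotides rose as groups. Of ribosome biogenesis genes 30 were higher and 0 lower of 33 tested (median difference 0.36), beside 24.7% higher over all genes. DKC1, which modifies ribosomal RNA, rose by 0.46, nucleolin (NCL) by 0.43, the helicase gene DDX21 by 0.45 and NIP7 by 0.47. PPAN had the largest rise of the list, at 7.95, 8.01 and 7.97 in the controls and 8.67, 8.73 and 8.69 in the knockdown. Of nucleotide synthesis genes 20 were higher and 0 lower of 23 tested (median difference 0.21), with CTPS1, which makes CTP, at 0.40, the purine enzyme gene PFAS at 0.37, GMPS at 0.32 and IMPDH2, the entry to guanine nucleotides, at 0.29. All 8 subunits of the chaperonin CCT, which folds actin and tubulin, rose, by 0.22 to 0.42, whereas none of the 5 tested prefoldin subunits passed (1 did with median centring). CCT3 went from 11.39, 11.36 and 11.32 to 11.72, 11.84 and 11.79, and CCT5, TCP1 and CCT6A rose by 0.42, 0.42 and 0.41.

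Translation and mitochondrial import genes moved the same way. By comparison, 24.7% of all genes tested were higher and 24.0% lower. Median rlog values of the growth lists were 9.39 (ribosome biogenesis), 10.1 (nucleotide synthesis), 10.1 (CCT and prefoldin), 10.5 (initiation factors), 9.62 (tRNA synthetases) and 9.91 (mitochondrial import). Of all genes with a mean between 9 and 11, 35.2% were higher and 20.2% lower. The part of expression level in the shares of these lists was not tested. Of translation initiation factors 20 were higher and 1 lower of 32 tested (median difference 0.16), led by the scaffold EIF4G1 (0.46), EIF5A (0.44), EIF4G2 (0.40) and EIF3K (0.40). Of cytosolic tRNA synthetases and their scaffold genes 11 were higher and 1 lower of 20 tested (median difference 0.14), QARS1 rising by 0.40 and HARS1 by 0.27. With quantile normalisation 9 of them were higher and 2 lower. Of mitochondrial import and chaperone genes 19 were higher and 0 lower of 24 tested (median difference 0.27). TIMM50, a receptor of the inner membrane translocase, went from 9.06, 9.11 and 9.00 to 9.50, 9.68 and 9.64, and the chaperonin HSPD1 rose by 0.56. Its co-chaperonin HSPE1 rose by 0.26, HSPA9, the mitochondrial Hsp70, by 0.47 and TIMM44 by 0.45. The medians of the growth lists kept their sign with quantile normalisation and with median centring, at 0.34 and 0.40 for ribosome biogenesis, 0.16 and 0.25 for nucleotide synthesis, 0.25 and 0.31 for mitochondrial import, 0.16 and 0.20 for initiation factors, and 0.07 and 0.18 for tRNA synthetases.

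**Figure D3:**
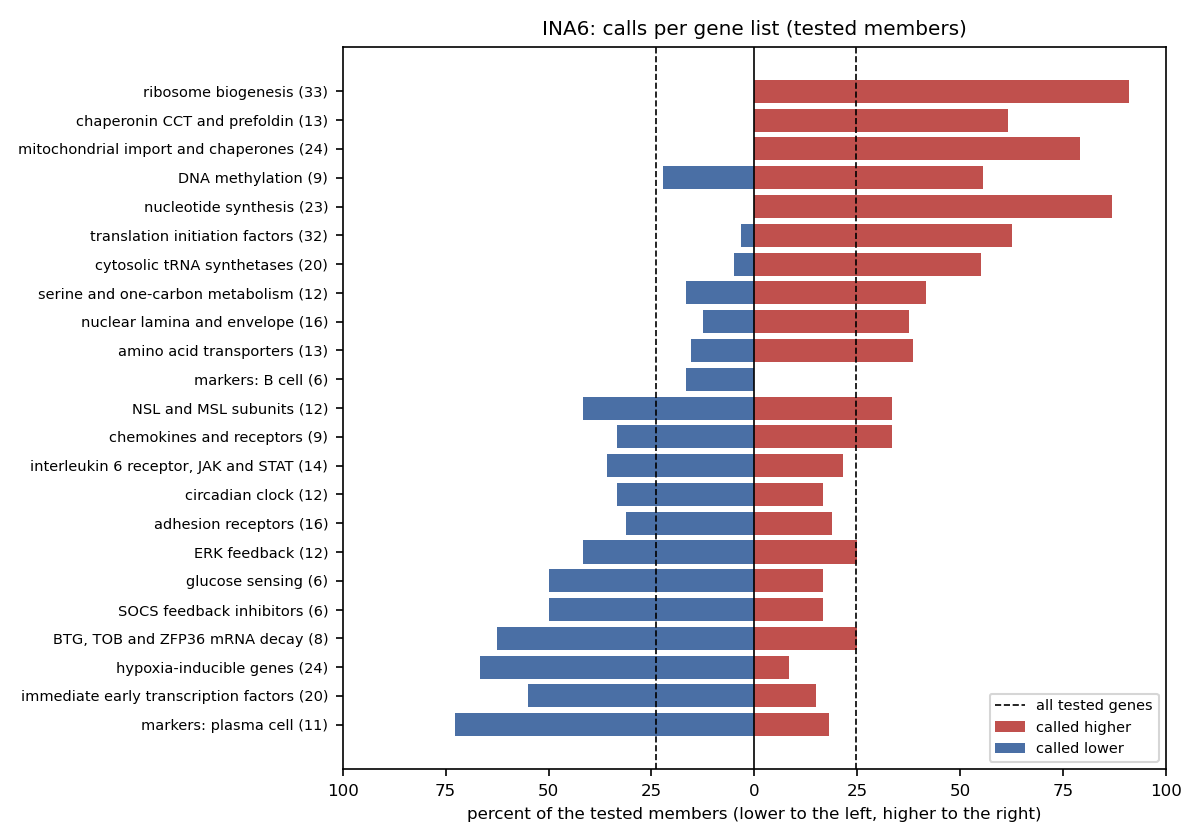
Percent of the tested members of each gene list called lower (blue, to the left) or higher (red, to the right) in INA6, with the number tested in brackets and lists of at least 5 tested genes ordered by their median difference. Dashed lines give the shares over all tested genes, 24.0% lower and 24.7% higher; ribosome biogenesis (30 of 33 higher) and plasma cell markers (8 of 11 lower) are at opposite ends.

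Plasma cell genes fell in INA6 beside this. Of the 11 tested plasma cell markers 8 were lower and 2 higher (median −0.44), beside 24.0% lower and 24.7% higher over all genes tested. JCHAIN, which joins the units of polymeric antibodies, was at 15.75, 15.71 and 15.70 in the controls and 15.01, 14.72 and 14.74 in the knockdown libraries, 1.86-fold lower. PRDM1, the factor that drives plasma cell differentiation, went from 12.44, 12.50 and 12.52 to 11.89, 11.63 and 11.78, and the surface receptor gene SLAMF7 from 11.42, 11.42 and 11.42 to 10.88, 10.61 and 10.63. In all 3 genes knockdown replicate 1 lay closest to the controls and the arms stayed separate by at least 0.5. TNFRSF17, the BAFF and APRIL receptor BCMA, fell by 0.56, its relative TNFRSF13B by 0.68, and FCRL5, an Fc receptor-like surface gene, by 0.44. IRF4 and CD38 were the 2 markers that rose, by 0.29 and 0.25, and SDC1 was at −0.08 (limma adjusted p = 0.126). In JJN3 the changes of JCHAIN, PRDM1 and SLAMF7 were 0.01, 0.28 and 0.20. Each differed from INA6 (adjusted p of the difference = 4.82e-16, 6.08e-18 and 2.4e-13), while FCRL5 was at −0.49 in JJN3 (0.685). SDC1 had the same sign in both lines but was lower in JJN3, at −0.50 against −0.08 in INA6 (adjusted p of the difference = 2.24e-05).

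Lists of surface, chromatin and clock genes were mixed. Their counts stand beside 24.7% higher and 24.0% lower over all genes tested. Of DNA methylation genes 5 were higher and 2 lower of 9 tested (median difference 0.26): the maintenance methyltransferase DNMT1 rose by 0.37, DNMT3B by 0.41 and the remodeller HELLS by 0.40 beside UHRF1, while the demethylase gene TET1 fell by 0.33. Lamin B genes LMNB1 and LMNB2 rose by 0.32 and 0.28 and BANF1, which links DNA to the lamina, by 0.25, and SYNE1, a linker to the cytoskeleton, fell by 0.31; the median of the lamina list was 0.02, and −0.01 with quantile normalisation. Of the NSL and MSL subunits, KANSL2 included, 4 were higher and 5 lower of 12 tested (median difference −0.02); the median was 0.01 with median centring, and 2 were higher with quantile normalisation. The host cell factor HCFC1 rose by 0.41 and MCRS1 by 0.31, while MSL3, a reader in the other KAT8 complex, fell by 0.31, PHF20 by 0.25 and KANSL3 by 0.24. Of chemokines and receptors 9 of 20 were tested, and beside CCL2 the scavenging receptor gene ACKR3 fell by 0.65, from 5.70, 5.34 and 5.87 to 5.04, 4.87 and 5.06, and CXCR4 by 0.19, while CXCR3 rose by 0.28 and CCR10 by 0.22. Of adhesion receptors 3 were higher and 5 lower of 16 tested (median difference −0.05), with ICAM1 at 0.28, ICAM3 at −0.30 and the integrin chain ITGA4 at −0.19. In the clock list RORA rose by 0.66 and BHLHE41 and DBP fell by 0.45 and 0.38. SLC7A11, the cystine importer, rose by 0.49 and the neutral amino acid transporter gene SLC1A4 fell by 0.30. In one-carbon metabolism MTHFD1 rose by 0.27 and ALDH1L2 fell by 0.33.

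Genes were also grouped by symbol alone, without choosing a pathway. Among 142 symbol stems with at least 10 tested genes, which hold 3932 genes, the highest shares of rises were in UTP (9 higher and 0 lower of 10, median 0.26), subunits of the processome that cleaves pre-ribosomal RNA. PSMD, the regulatory proteasome, had 12 higher and 0 lower of 15, median 0.29, PRPF, splicing factors, 8 higher and 1 lower of 10, median 0.20, NOL, mostly nucleolar proteins, 7 higher and 2 lower of 10, median 0.27, and MCM 8 higher and 0 lower of 12, median 0.29. TIMM, translocase subunits of the mitochondrial inner membrane, tied with MCM, with 10 higher and 0 lower of 15, median 0.29. Over all tested genes 24.7% were higher, and 35.2% of those with a mean between 9 and 11. The median rlog values of PSMD (9.76), PRPF (9.88), MCM (10.2) and TIMM (9.18) lay in that band. The MCM stem holds the replicative helicase subunits MCM2 to MCM7, all of them higher, and 6 other symbols, of which MCM9 and MCM10 were higher. Values of leading members were 0.35 for UTP25, 0.47 for PSMD11, 0.38 for PRPF19, 0.50 for NOL6 and 0.56 for MCM4. A stem also takes in unrelated genes such as antisense transcripts. Against 24.0% lower over all tested genes, the highest shares of falls were in GOLGA (0 higher and 7 lower of 11, median −0.24), ARL (4 higher and 11 lower of 20, median −0.14), KLF (1 higher and 6 lower of 11, median −0.17), RGS (1 higher and 6 lower of 11, median −0.29) and ZFP (1 higher and 7 lower of 13, median −0.15). GOLGA genes encode Golgi matrix proteins, but GOLGA6L2 (−0.64), GOLGA6L7 (−0.58) and GOLGA8B (−0.28) belong to near-identical copies whose reads cannot be told apart with certainty. ARL genes encode small GTPases of membrane and cilium traffic, with ARL11 at −0.48 and ARL2 and ARL6 at −0.30 and −0.30. Of the RGS genes, which end G protein signals, RGS20 (−0.61), RGS9 (−0.42) and RGS3 (−0.42) fell beside RGS1. All these medians kept their sign with quantile normalisation and with median centring.

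Calls were also counted by gene type. Of 97 snoRNA genes, which guide modification of ribosomal and splicing RNA, 38 were higher (39.2%) and 3 lower (3.09%), against 25.7% and 24.3% of the 11197 protein-coding genes. SNORA73A (0.61), SNORA73B (0.60) and SNORD4A (0.52), named after their values were seen, had the highest values. Mature snoRNAs lack a poly(A) tail, by which the RNA was captured. Most are shorter than the fragments of such libraries and lie in introns, so reads of the host transcript cannot be told apart from their own, and SNORA73A and SNORA73B are near-identical copies within the transcript of SNHG3. Host transcripts of the SNHG series had 13 higher and 2 lower of 21, median 0.27, SNHG12 at 0.63, SNHG3 at 0.60 and SNHG1 at 0.58. Of 719 lncRNA genes 88 were higher (12.2%) and 173 lower (24.1%), counts that became 133 and 138 with median centring. Their median rlog value was 5.08, against 8.48 for protein-coding genes. Shares of calls moved with the mean rlog value (next paragraph), and its part in the lncRNA shares was not tested. Of 291 antisense symbols ending in -AS, 29 were higher and 52 lower, and 43 and 41 with median centring; without known strand, reads of an antisense gene and its partner cannot be told apart.

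Calls were counted by mean rlog value. Of genes with a mean of 11 and over, 47.4% were higher and 18.6% lower, and of those between 9 and 11, 35.2% and 20.2%. Between 5 and 7 it was 15.6% higher and 30.3% lower, and between 3 and 5 it was 9.90% and 17.7%. Falls outnumbered rises from 7 to 9 too, with 21.6% higher and 28.8% lower. The split in these bands depended on the scaling. With median centring the band from 3 to 5 turned from 200 higher and 357 lower to 356 and 224, the band from 7 to 9 turned from 779 and 1040 to 990 and 856, and the band from 5 to 7 kept more falls, with 449 and 576. With quantile normalisation, which equalises the distributions of the libraries, the top band had 351 higher and 271 lower of 1012 genes instead of 480 and 188, and the band from 5 to 7 had 502 and 497. Gene length moved with the split too. In the longest of 5 equal classes of protein-coding genes (median 153324 bases, introns included) 17.6% were higher and 28.6% lower, against 29.5% and 23.6% in the shortest class (median 5305 bases). The median rlog values of those classes were 8.34 and 8.19. The longest class had 511 higher and 508 lower with median centring, and the shortest 820 and 437.

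**Figure D4:**
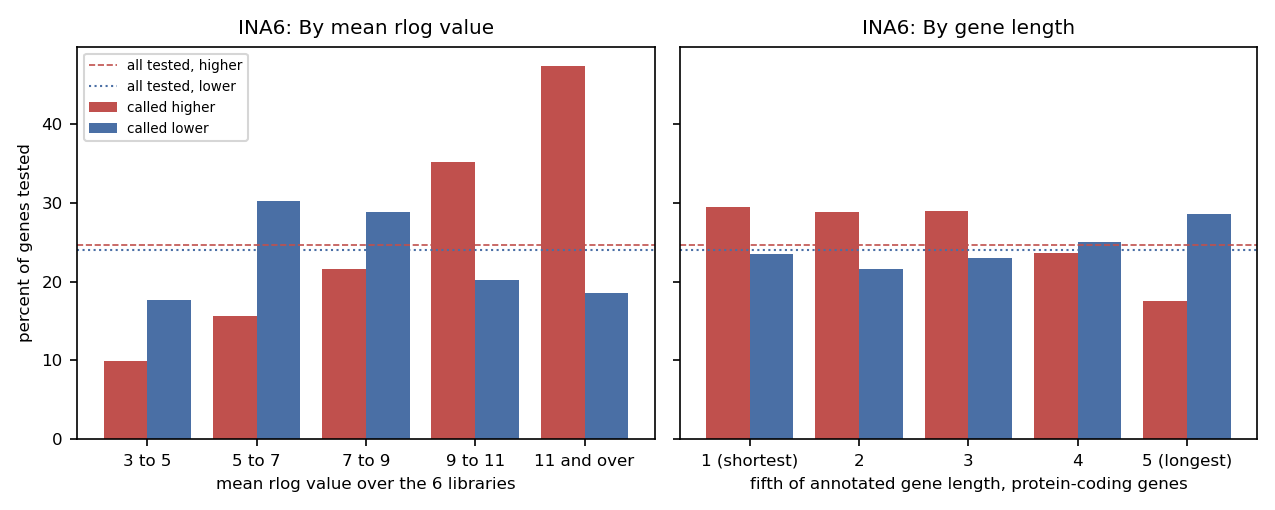
Percent of tested INA6 genes called higher (red) or lower (blue), by mean rlog value over the 6 libraries (left) and by class of annotated length of protein-coding genes (right, 5 equal classes); dashed and dotted lines give the shares over all tested genes. The share of rises goes from 9.90% in the lowest band of means to 47.4% in the highest, and from 29.5% in the shortest to 17.6% in the longest class.

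By chromosome, the share of rises was highest on chromosome 16 (32.8% of 570 genes) and chromosome 19 (32.1% of 859) and lowest on chromosome 6 (17.4% of 557), where 29.4% were lower (127 higher and 130 lower with median centring). On chromosome 12, which carries KANSL2, 26.1% of 690 genes were higher and 23.6% lower, close to the 24.7% and 24.0% over all genes. Chromosome 18 had the smallest share of falls, 16.8% of 155 genes.

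Low CpG ratios were more common among promoters of the genes that fell by at least 0.5, in counts without a test. An observed to expected CpG ratio below 0.6 in the 300 bases around the start (250 before, 50 after) was found for 55 of 184 genes lower by at least 0.5 (29.9%), for 15 of 92 genes higher by at least 0.5 (16.3%) and for 17.0% of all 8679. Among all called genes it was 20.8% of those lower and 11.8% of those higher. The median GC content was 67.8%, 66.3% and 65.0% in the genes lower by 0.5, higher by 0.5 and all tested, and their median rlog values were 8.06, 9.01 and 8.39. The ETS motif CCGGAAG, frequent in promoters of widely expressed genes, was in 7.07% of the promoters of genes lower by at least 0.5, 14.1% of those higher by at least 0.5 and 20.4% of all. The E-box CACGTG was in 9.78%, 18.5% and 10.4%, and the TATA box TATAAA in 7.07%, 13.0% and 5.81%. The shares of the rises rest on few promoters: of the 92, 13 held the ETS motif, 17 the E-box and 12 the TATA box. Among all genes called lower and higher, the ETS motif was in 17.3% and 24.1%. The E-box was in 9.19% and 12.1% of these, and the TATA box in 6.11% and 6.32%. The STAT letters were as frequent in the genes that fell by 0.5 (6.52%) as in all (6.33%). So was the hypoxia core ACGTGC, in 8.70% of those that fell by 0.5 and 8.83% of all, with 15.2% of those that rose by 0.5. A CArG box was in 1 of the 184 promoters of falls and 2 of the 92 of rises, beside 1.04% of all. These shares are descriptions without a test, and a match is not a site of binding.

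JJN3 was used to ask which of these changes differed in a second line. It is a human myeloma line that grows without added interleukin 6, and its knockdown and control libraries (3 each, genotypes named as in INA6) were normalised in a separate table and share no control with INA6. The pull of rlog values towards a gene's mean may therefore differ between the tables, which limits every comparison of sizes between lines. Over 11137 genes tested in both lines, the difference between the changes (difference of the limma estimates over their joint error, Benjamini-Hochberg adjusted) passed for 3342, 30.0%. Of the 25 largest INA6 falls 24 were tested in JJN3 and 24 differed. These genes were picked for their INA6 change, which enters the test, and that choice by itself favours a difference. JJN3 had the opposite sign in 8 of the 24 and a call in that direction in 6. SOCS3, which fell by 2.26 in INA6, rose by 0.50 in JJN3 (adjusted p of the difference = 3.28e-31), FOS rose by 0.63 there (1.5e-23) and KLF2 by 0.65 (1.5e-23). PIM1, a kinase induced by STAT signals, fell by 0.46 in INA6 and rose by 0.78 in JJN3 (3.42e-22), and TNFRSF17, which encodes BCMA, fell by 0.56 and rose by 0.58 (8.71e-22). EGR1 was at 0.07 in JJN3 (limma adjusted p = 0.465) and HBEGF at 0.00 (0.993).

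In the other direction, TNFAIP3, an inhibitor of NF-kappaB signalling, rose by 0.42 in INA6 and fell by 0.51 in JJN3 (adjusted p of the difference = 2.09e-13). PARP14, an interferon-linked ADP-ribosyltransferase, was at 0.41 and −0.39 (3.78e-13), IFFO2 at 0.57 and −0.23, the cytoplasmic actin gene ACTG1 at 0.54 and −0.02, and GRIN3B at 0.92 and −0.04. Of the 25 largest INA6 rises, also picked for their INA6 change, 19 were tested in JJN3 and 17 differed between lines. None of them was called in the opposite direction. MIR17HG (JJN3 0.58, adjusted p of the difference = 0.131) and AVPR2 (0.62, 0.314) did not pass. CCL2, PECAM1, RELN, MX1, AKAP12 and FRZB were below the minimum mean in JJN3 and could not be compared.

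The large changes of INA6 were also followed as groups. Of the 228 genes lower by at least 0.5 in INA6 and tested in JJN3, 143 were also called lower there, 28 were called higher and 57 were not called, with a JJN3 median of −0.18 against −0.59 in INA6. Of the 120 genes higher by at least 0.5, 88 were also called higher, 4 called lower and 28 not called, with a JJN3 median of 0.31 against 0.57. The shares of all genes called in JJN3 are not given here, so these counts cannot show how far agreement goes beyond them. The genes were picked for a large change in INA6, and that choice by itself favours a smaller median in JJN3. KANSL2 itself fell by more in JJN3 (−1.21; adjusted p of the difference = 2.11e-11). The ribosome biogenesis genes with the smallest p in INA6 had values above 0 in JJN3 too. For PPAN (JJN3 0.52), DKC1 (0.29) and DDX21 (0.29) the difference between lines passed (adjusted p of the difference = 0.0382, 0.0235 and 0.0386). It did not pass for MRTO4 (0.48), NCL (0.37) and NIP7 (0.33), at 0.349, 0.480 and 0.0852.

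**Figure D5:**
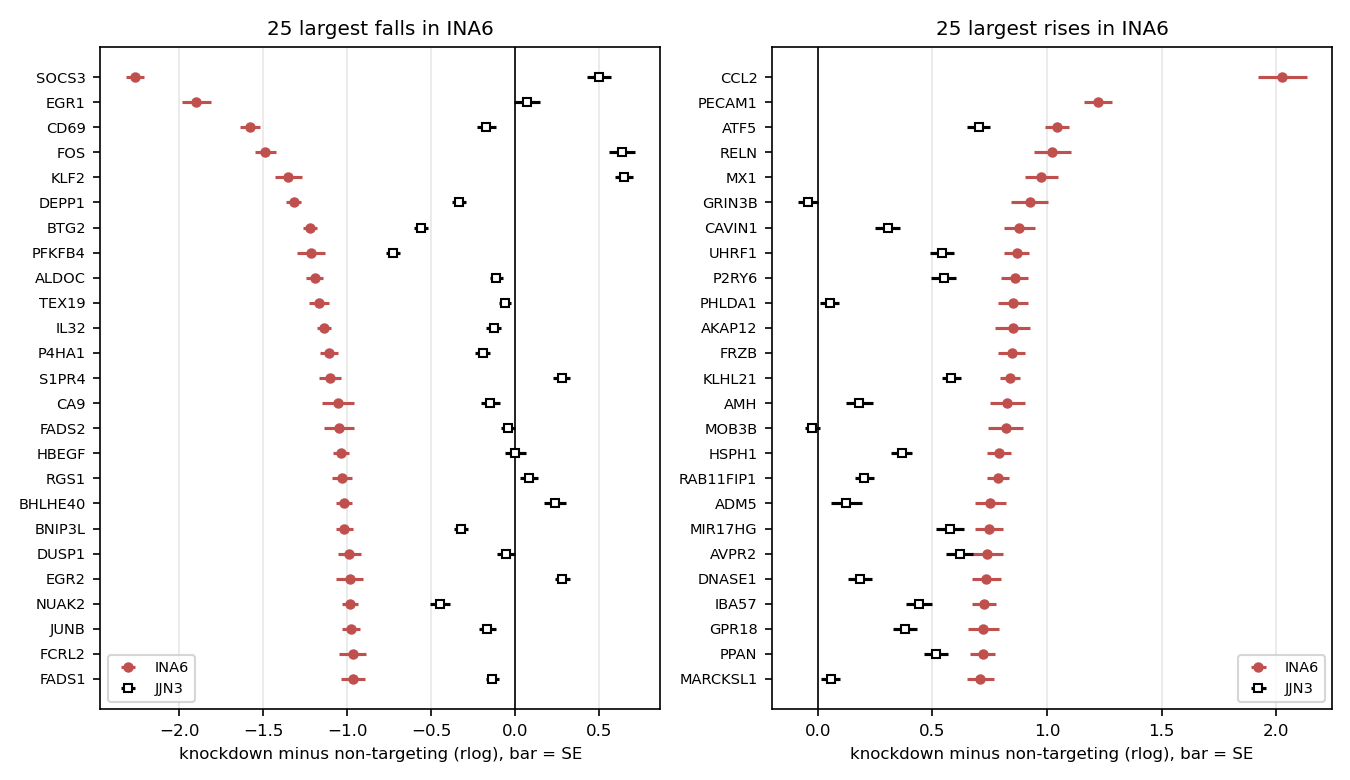
Change on knockdown (knockdown minus non-targeting, rlog on the log2 scale; bars are standard errors) in INA6 (red circles) and JJN3 (open squares) for the 25 largest falls (left) and rises (right) of INA6; genes without a square were not tested in JJN3. SOCS3, FOS and KLF2 lie on opposite sides of 0 in the 2 lines, while MIR17HG and AVPR2 have neighbouring values.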

How the data were processed

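Poly(A) RNA of 6 INA6 and 6 JJN3 samples was sequenced; the other samples were not analysed here. DESeq2, HTSeq, Bowtie2 and Trim Galore are the tools, and hg38 the build, named in the submitters' processing notes; versions, strand and annotation are not given in the sources used here. The authors deposited, for each line, rlog values on the log2 scale, a unit taken from the tables' names and values; they hold no counts, so depth and counting error are unknown. No library pair was identical, and 0 value columns were left unmapped.

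Samples were grouped by title. limma 3.58.1 (R 4.3.3; lmFit, eBayes with a mean-variance trend, no block, two-sided) was fitted on genes with a mean of at least 3 and tested on simulated data; adjusted p-values named limma come from it. Same-numbered libraries were not treated as pairs (correlations of same-numbered deviations −0.30 to −0.07). With 3 against 3 an exact permutation test of a single gene cannot go below 0.1, so none was run. Of the 12511 symbols 12367 (98.8%) matched RefSeq GRCh38.p14. For the promoter shares, genes with a window at their outermost start were used.

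Genes named: KANSL2; the 25 largest called rises and falls without clone-based symbols; the 8 largest each way with a mean of at least 10; up to 6 members per list with the smallest p; up to 4 genes in each of the 5 symbol stems with most rises or falls; and 5 genes each way with the smallest p between lines. Not all are printed. Members and lists were chosen with earlier results of these data known. Alternatives were median centring, quantile normalisation, other minimum means, no variance trend, the block and leaving out each library.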

Additional observations from a re-analysis of the deposited data

Results flagged for a closer look

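The change on knockdown differed between INA6 and JJN3 for 3342 of 11137 genes in a test of the difference itself (limma estimates of both lines, adjusted p below 0.05). The named genes with the smallest p had a change in INA6 minus change in JJN3 of 0.93 for TNFAIP3, 0.80 for PARP14, 0.80 for IFFO2, 0.56 for ACTG1 and 0.97 for GRIN3B, and of −2.76 for SOCS3, −2.12 for FOS, −2.00 for KLF2, −1.24 for PIM1 and −1.14 for TNFRSF17. The knockdown left more of KANSL2 in INA6 than in JJN3, and its part in these differences was not tested.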

How the results depend on the processing

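No count of calls over all genes moved by more than 1.5 times under the alternatives run. Counts within smaller groups moved by more with median centring: lncRNA rises went from 88 to 133, snoRNA falls from 3 to 1, and rises and falls among genes with a mean of 3 to 5 from 200 to 356 and from 357 to 224. Leaving out 1 library gave 2529 to 3093 genes higher and 2505 to 3000 lower, 121 to 170 higher and 230 to 289 lower by at least 0.5, and 2723 to 3434 genes that differed between lines. The numbers higher and lower were 3904 and 2400 with median centring, 3032 and 2824 with quantile normalisation, 2914 and 2681 with a minimum mean of 5, 2840 and 2839 with none, and 2987 and 3007 without the variance trend. With the replicate number as a block 2811 were higher and 2815 lower. None of the 3 control libraries correlated best with the knockdown library of its own number. With 3 libraries per arm this cannot settle whether same-numbered libraries were handled together, and the labels do not tell. KANSL2 stayed between −0.42 and −0.34, with limma adjusted p of at most 0.000502 over 12 alternatives. Of 201 named genes that were called, 9 lost the call under at least 1 alternative (none of them printed), none reversed, and 1 uncalled gene, SOCS1, gained one. Unknown depth limits all statements on low values.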
